A study of Mus musculus with 6 samples.

Results

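Of the genes of the small RNA pathways of the mouse, 10 were followed through meiotic maturation of the oocyte: Drosha, Dgcr8, Xpo5, Dicer1, Tarbp2, Ago1, Ago2, Ago3, Piwil2 and Mael. They were represented by every probe set that the array annotation maps to exactly 1 of these symbols, which gave 21 of the 21646 probe sets tested and 9 of the 11429 genes with such a probe set. Ago1 had none and was not analysed here. The study compared mature, ovulated oocytes in metaphase II (MII) with fully grown oocytes that still had their germinal vesicle (GV), with 3 biological replicates of 300 oocytes each and 1 short-oligonucleotide array per replicate. MII oocytes, with a visible first polar body, came from oviducts of mice aged 22 to 24 days that had received 5 IU of equine chorionic gonadotropin (eCG) and then 5 IU of human chorionic gonadotropin, 14 h before collection, and were freed of cumulus cells with hyaluronidase at 1 mg/ml. GV oocytes, arrested in prophase of meiosis with an intact nucleus, came from punctured large antral follicles of same-aged mice 44 to 46 h after 5 IU of eCG, stripped of cumulus cells by pipette, and held in 5 µM milrinone, an inhibitor of the oocyte's phosphodiesterase. The labels give the same collection medium for both stages. Both stages therefore came from eCG-primed mice, and the labels used here name no strain, genotype or allele. The RNA labelled per sample was 10 ng in total, amplified over a pair of cDNA synthesis rounds.

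Several kinds of small RNA guide silencing in the mouse germ line. MicroRNAs are cut from hairpins by Drosha and Dgcr8 in the nucleus, exported by Xpo5, cut again by Dicer1 with its partner Tarbp2, and loaded into Argonaute proteins, whereas endogenous siRNAs come from long double-stranded RNA and need Dicer1 and the slicing Argonaute Ago2 but neither Drosha nor Dgcr8. piRNAs are made without Dicer1, bind PIWI proteins such as Piwil2 and repress transposons. In mouse oocytes the siRNA pathway is known to be essential for meiosis, microRNA activity is known to be weak, and a shorter Dicer1 isoform that starts at a retrotransposon-derived promoter inside the gene is known to predominate.

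The values are log2 expression values as the authors deposited them, relative to the RNA on each array. Because the same mass of RNA was labelled from each sample, fewer contributing cells and less RNA per cell cannot be told apart. No detection call was used here, and the number of arrays limits the precision. The array medians were lower by 0.62 in MII oocytes, and over all probe sets the log2 differences had a median of -0.15. Of the 14 oocyte markers 13 were measured, and all 13 averaged more than the median probe set. Of these 6 were lower in MII oocytes and 2 higher, beside 37.8% lower and 10.5% higher over all genes, each by its probe set of highest mean. The steepest falls were those of the zona pellucida genes Zp2 (-4.26) and Zp3 (-2.76), and the rises were Bmp15 (0.69) and H1f8 (0.66). The summed level of the 13 on the linear scale was 31250 to 33150 in MII and 38810 to 42040 in GV arrays. Of 15 granulosa and cumulus cell markers 9 were measured, 2 of them above that median. Of these 9, 3 were lower in MII oocytes, beside the same 37.8% of all genes: Inhba (-1.40), Nr5a2 (-0.85) and Fshr (-0.51). The sum of these 9 was 269 to 344 in MII and 441 to 501 in GV arrays, and the part of either marker list in the results was not tested. Of 10 markers of oviduct, blood, endothelium and stroma 2 were measured, Ovgp1 and Col1a2, and neither passed the test.

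Drosha, Mael and 1 of the 2 Dicer1 probe sets were lower in MII oocytes, whereas the other Dicer1 probe set, Tarbp2 and most Argonaute probe sets were not called. The steepest falls were those of Dicer1 at 1 of its 2 probe sets (7.44-fold), Drosha (6.26-fold and 2.24-fold at its 2 probe sets) and Mael (4.39-fold), and these 4 probe sets were called lower under all 5 scalings between arrays that were tried, as were 19.6% of all probe sets. Smaller falls were called for 1 probe set each of Dgcr8, Xpo5 and Ago2 and for Piwil2. The only rises called were at 1 probe set each of Ago2 (1.51-fold) and Ago3 (1.37-fold), both below the median of every array. In all, 8 of the 21 probe sets were lower and 2 higher by limma (p adjusted by Benjamini-Hochberg over all probe sets tested, threshold 0.05), beside 34.1% lower and 10.9% higher among all probe sets, and the MII and GV values did not overlap for 11 of the 21, beside 54.0% of all probe sets. These shares are near the background. The median log2 difference of the 21 was -0.22.

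**Figure D1:**
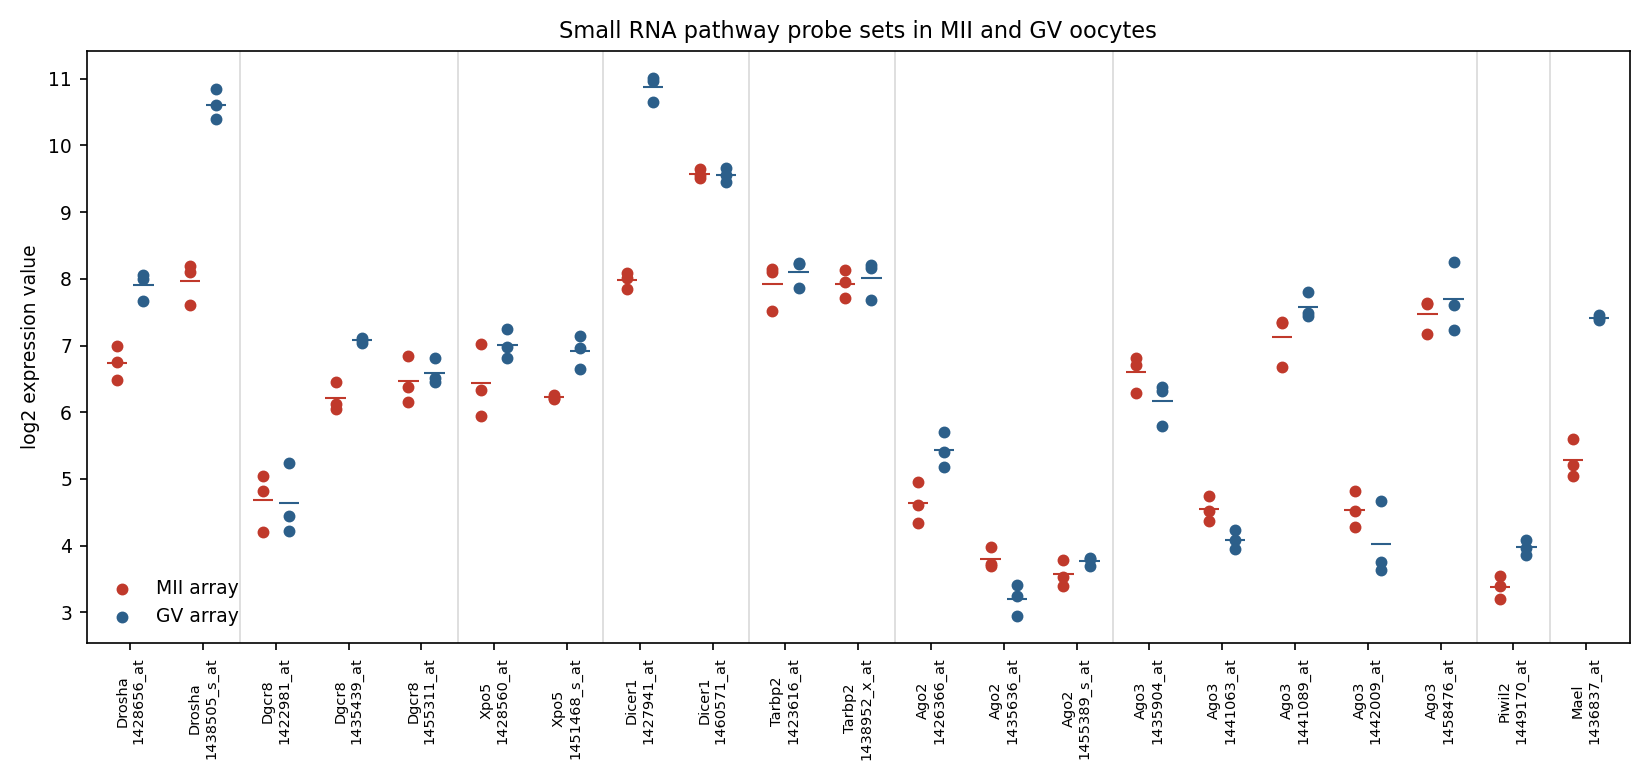
Log2 expression value (vertical axis) of each of the 21 probe sets in the 3 MII arrays (red points, left) and the 3 GV arrays (blue points, right), with the mean of each stage as a short line. The points of the stages lie far apart for Drosha 1438505_s_at, Dicer1 1427941_at and Mael, and lie on each other for Dicer1 1460571_at, near 9.6.

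Upstream sequences are shown for the members called lower under every scaling (Drosha, Dicer1, Mael) and for Tarbp2, which was not called as deposited. They are the 250 bases before the annotated start in RefSeq's GRCm38.p6, read 5′ to 3′ on the gene's strand. Capitals mark CCAAT, the letters of a common promoter element, or its reverse complement ATTGG, and CACGTG, the letters of an E-box, which reads alike on both strands.
Drosha, chr15:12824565-12824814, plus strand: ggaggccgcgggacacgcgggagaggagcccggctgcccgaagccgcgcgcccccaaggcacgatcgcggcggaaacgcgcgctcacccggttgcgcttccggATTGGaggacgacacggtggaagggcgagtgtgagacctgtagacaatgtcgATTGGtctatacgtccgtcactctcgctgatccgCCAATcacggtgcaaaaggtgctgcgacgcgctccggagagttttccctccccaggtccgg
Dicer1, chr12:104751953-104752202, minus strand: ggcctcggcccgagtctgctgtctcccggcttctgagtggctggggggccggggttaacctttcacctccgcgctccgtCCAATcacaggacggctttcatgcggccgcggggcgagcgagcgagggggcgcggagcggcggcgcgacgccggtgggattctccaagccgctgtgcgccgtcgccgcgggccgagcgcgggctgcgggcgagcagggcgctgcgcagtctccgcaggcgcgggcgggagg
Mael, chr1:166238745-166238994, minus strand: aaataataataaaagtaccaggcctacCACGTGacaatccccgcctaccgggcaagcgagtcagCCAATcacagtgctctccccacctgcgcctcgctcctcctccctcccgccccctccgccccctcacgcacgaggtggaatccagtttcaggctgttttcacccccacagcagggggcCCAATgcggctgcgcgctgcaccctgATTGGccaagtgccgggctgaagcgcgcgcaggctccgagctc
Tarbp2, chr15:102517942-102518191, plus strand: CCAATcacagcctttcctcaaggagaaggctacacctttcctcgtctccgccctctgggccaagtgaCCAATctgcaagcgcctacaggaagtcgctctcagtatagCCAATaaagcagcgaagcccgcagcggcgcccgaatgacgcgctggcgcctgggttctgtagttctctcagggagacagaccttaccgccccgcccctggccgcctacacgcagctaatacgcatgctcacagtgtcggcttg
The CCAAT letters occurred 3 times before Drosha, Mael and Tarbp2 and 1 time before Dicer1. They thus stood before members with a probe set called lower and before a member not called as deposited. The Dicer1 window precedes the annotated start. It is not the promoter inside the gene from which the shorter oocyte isoform starts, and that promoter is not shown. Of the 9 measured members 7 had an upstream window in the table (not Ago2 and Piwil2), and the CCAAT letters were found for 5 of the 7, against 37.5% of the 27025 genes with a window of that length. CACGTG was found for 1 of the 7, Mael, against 6.86% of those genes. The motifs were chosen after the values were seen, and a match of letters is a description of the sequence only.

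Drosha, the nuclear RNase III that releases microRNA hairpins, was lower in MII oocytes at both of its probe sets. At 1438505_s_at the values were 8.10, 8.19 and 7.61 in MII oocytes, against 10.84, 10.60 and 10.39 in GV oocytes. Every MII value lay below every GV value, and the log2 difference was -2.65 ± 0.19 (SE, 3 arrays per stage; adjusted p = 1.5e-06). At 1428656_at the values were 7.0, 6.48 and 6.75 in MII oocytes, against 7.67, 8.06 and 8.0 in GV oocytes, a difference of -1.16 ± 0.17 (adjusted p = 0.00034). The stages did not overlap here either, but the fall was smaller: within each array the 1438505_s_at value fell by 1.48 ± 0.35 more on the log2 scale than that of 1428656_at, with no overlap between stages. The first of these is of the _s_at type, whose probes can match more than 1 transcript.

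Dgcr8, the double-stranded RNA binding partner of Drosha, was read by 3 probe sets that did not move together. At 1435439_at the values were 6.05, 6.13 and 6.46 in MII oocytes, against 7.11, 7.08 and 7.04 in GV oocytes, with a difference of -0.87 ± 0.15 (adjusted p = 0.00085). The GV values were tightly grouped (SD 0.04, n = 3) and all lay above the MII values, but with array medians made equal the difference was -0.24 and after quantile normalization -0.19, neither called. At 1455311_at the values were 6.39, 6.15 and 6.85 in MII oocytes, against 6.45, 6.52 and 6.81 in GV oocytes. At 1422981_at they were 5.04, 4.21 and 4.82 in MII oocytes, against 4.22, 4.45 and 5.24 in GV oocytes. The stages overlapped at both, with differences of -0.13 (95% interval -0.56 to 0.30) and 0.05 (-0.58 to 0.68). Both signs depended on the scaling: equal array medians gave 0.49 and 0.67, both called higher, and equal poly-A controls gave -1.0 and -0.82, both called lower.

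The Dgcr8 gene also carries a microRNA, Mir1306, and Drosha and Dgcr8 are known to cut hairpins in the Dgcr8 transcript itself, which is why its mature strands are shown. Their sequences are RefSeq's (GRCm38.p6, minus strand), with the seed, bases 2 to 8, in capitals.
mmu-miR-1306-5p, chr16:18284288-18284310: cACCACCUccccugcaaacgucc
mmu-miR-1306-3p, chr16:18284248-18284268: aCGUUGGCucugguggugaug
Both lie within the annotated Dgcr8 gene, and the strands have different seeds. The arrays measured the Dgcr8 transcript and not these microRNAs.

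Xpo5, the exportin that carries microRNA precursors to the cytoplasm, was lower at 1 of 2 probe sets. At 1451468_s_at the values were 6.22, 6.26 and 6.20 in MII oocytes, against 6.65, 6.97 and 7.14 in GV oocytes, with no overlap and a difference of -0.70 ± 0.16 (adjusted p = 0.0043). At 1428560_at they were 6.34, 5.95 and 7.02 in MII oocytes, against 6.81, 7.25 and 6.97 in GV oocytes. Here MII replicate 3 lay among the GV values, and the difference of -0.57 ± 0.25 was not called (adjusted p = 0.088). Without that array it was -0.87 and called lower (adjusted p = 0.0066), while all 6 arrays gave 0.05 under equal array medians, not called, and -0.98 and -1.45 under equal hybridization and poly-A controls, both called lower. The fall called at 1451468_s_at was not called with array medians made equal (-0.07) or after quantile normalization (-0.02), and the 2 probe sets changed by amounts that differed by 0.12 ± 0.36.

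Dicer1, the cytoplasmic RNase III that makes both microRNAs and endogenous siRNAs, was lower at 1 of its 2 probe sets and not called at the other. At 1427941_at the values were 8.08, 8.01 and 7.85 in MII oocytes, against 10.97, 11.02 and 10.66 in GV oocytes. All MII values were far below all GV values, with a difference of -2.90 ± 0.15 (adjusted p = 1.8e-07), the steepest of the 21. At 1460571_at the values were 9.51, 9.64 and 9.56 in MII oocytes, against 9.56, 9.66 and 9.44 in GV oocytes. The stages overlapped, the difference was 0.02 ± 0.13 and its 95% interval was -0.28 to 0.31 (adjusted p = 0.93). The fall at 1427941_at ranged from -3.77 to -2.27 over the 5 scalings and was called in each, while 1460571_at was called higher under equal array medians (0.64) and quantile normalization (0.40), not called under equal hybridization controls (-0.39) and called lower under equal poly-A controls (-0.85).

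The probe sets of a gene were compared within arrays, where a constant added to an array cancels. As deposited, the change of 1460571_at exceeded that of 1427941_at by 2.91 ± 0.10 (SE), with no overlap between stages. The SE of a pair came from the unmoderated variance of its within-array differences, unlike the moderated SE of a single probe set. An exact 2-sided permutation test gave p = 0.1, the smallest that 3 against 3 samples allow, and 0.2 after Benjamini-Hochberg adjustment over 24 pairs. The 24 pairs were 20 of probe sets of 1 gene and 4 of genes of 1 role, and in 12 of them the within-array differences of the stages did not overlap. The share over pairs of other probe sets was not computed. Taken singly, 54.0% of all probe sets had stages that did not overlap, so a lack of overlap was common in these data. Quantile normalization, which is no constant shift, gave 2.84 for the Dicer1 pair and left 11 of the 24 without overlap. Where in the Dicer1 transcript each probe set lies was not used here.

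The transcripts whose values most resembled those of Dicer1 1427941_at, by root mean square difference over the 6 arrays after each probe set's mean was subtracted, were Pstpip1 (0.063), Nrf1 (0.069) and Cox7a2l (0.070), out of 11428 other genes by their brightest probe set. Their log2 differences were -2.88, -2.91 and -2.90.

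Tarbp2, the double-stranded RNA binding partner of Dicer1, was not called at either probe set. At 1423616_at the values were 7.52, 8.10 and 8.15 in MII oocytes, against 8.24, 8.22 and 7.86 in GV oocytes. At 1438952_x_at they were 7.71, 8.13 and 7.96 in MII oocytes, against 8.16, 8.20 and 7.68 in GV oocytes. The stages overlapped at both, the differences were -0.19 (95% interval -0.63 to 0.25) and -0.09 (-0.49 to 0.32), and the probe sets differed in their change by 0.10 ± 0.12. Equal array medians put them at 0.44 and 0.54 and quantile normalization at 0.39 and 0.51, with 1438952_x_at called higher in both, and equal poly-A controls put them at -1.06 and -0.96, both called lower. By brightest probe set, the change of Dicer1 (1460571_at) exceeded that of Tarbp2 (1423616_at) by 0.21 ± 0.19, and the stages overlapped.

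**Figure D2:**
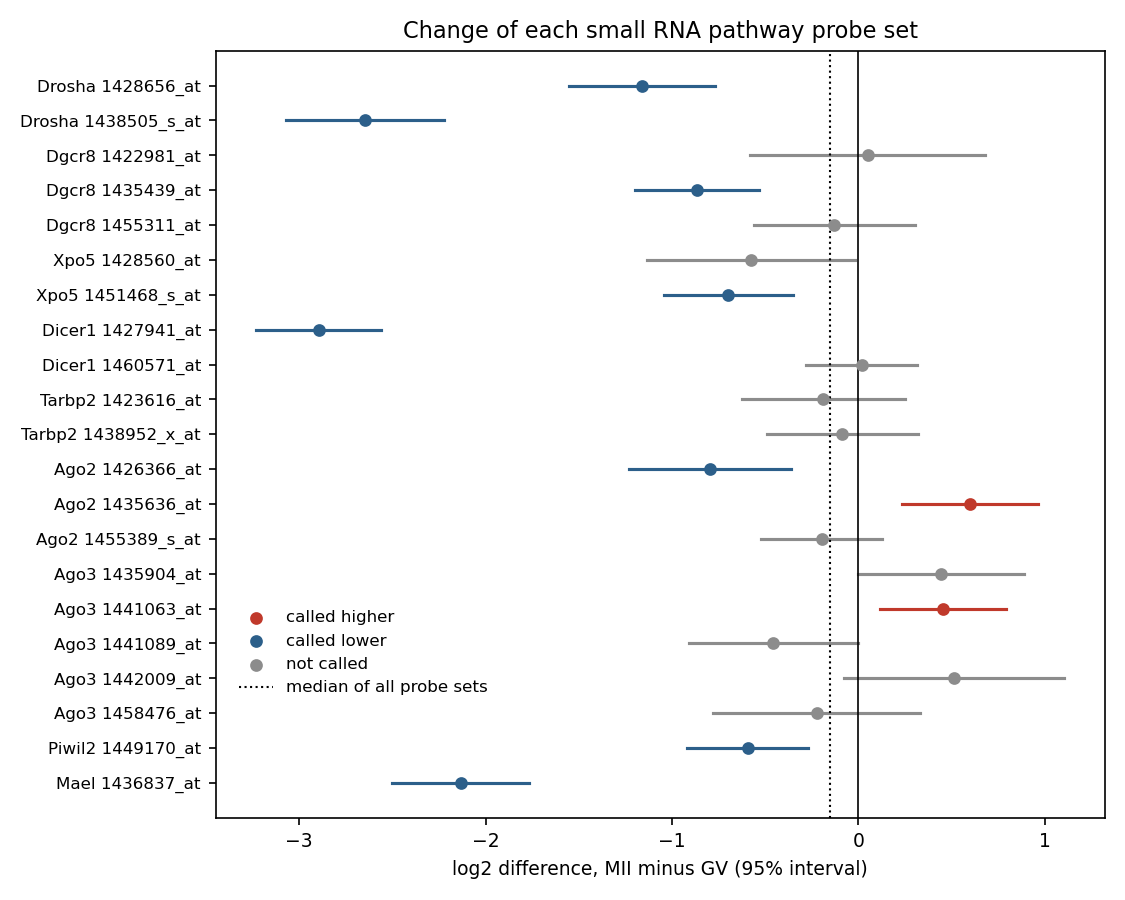
Log2 difference, MII minus GV, of each of the 21 probe sets (points) with its 95% interval from limma (bars). Colours mark the call at an adjusted p under 0.05, and the dotted line is the median of all probe sets, -0.15. Probe sets of Dicer1, Ago2, Ago3 and Dgcr8 spread on both sides of that line.

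Ago2, the Argonaute able to slice its target and the one needed for siRNA silencing, gave low values, below the median of every array at all 3 of its probe sets. At 1426366_at the values were 4.96, 4.61 and 4.34 in MII oocytes, against 5.70, 5.18 and 5.41 in GV oocytes, with no overlap and a difference of -0.80 ± 0.19 (adjusted p = 0.0073). At 1435636_at the order was the opposite, with 3.98, 3.72 and 3.69 in MII oocytes, against 3.24, 2.95 and 3.42 in GV oocytes. This difference of 0.60 ± 0.16 was called higher (adjusted p = 0.013), again with no overlap.

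The remaining Ago2 probe set, 1455389_s_at, had 3.78, 3.54 and 3.40 in MII oocytes, against 3.70, 3.80 and 3.81 in GV oocytes. The stages overlapped, and its difference of -0.20 (95% interval -0.52 to 0.13) was not called, while equal array medians gave 0.43, called higher, and equal poly-A controls -1.07, called lower. Within arrays the changes of 1426366_at and 1435636_at differed by -1.39 ± 0.17, with no overlap between stages (exact permutation p = 0.1, adjusted 0.2), so no single direction can be given for Ago2. Neither call was general: the fall was not called under equal array medians (-0.17), under quantile normalization (-0.28) or without moderation of the variance (adjusted p = 0.069), and the rise was not called without GV replicate 2 (0.47, adjusted p = 0.055) or without moderation (adjusted p = 0.06), was called under equal array medians (1.22) and quantile normalization (0.82), but was at 0.19 with hybridization controls made equal and was at -0.27 with poly-A controls made equal. The transcripts most like 1435636_at by the same measure of likeness were Setdb1 (0.055, with a difference of 0.61), Bmp15 (0.056, 0.69) and Gna14 (0.057, 0.54).

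Ago3, an Argonaute that binds microRNAs, had 5 probe sets, with differences from -0.46 to 0.52. Only 1441063_at was called, with 4.74, 4.53 and 4.36 in MII oocytes, against 4.08, 3.96 and 4.23 in GV oocytes, a difference of 0.45 ± 0.15 (adjusted p = 0.033). The stages did not overlap there, but all 6 values were below the median of their array. The call was lost without GV replicate 1 (0.45, adjusted p = 0.068), GV replicate 2 (0.39, 0.11), MII replicate 1 (0.36, 0.11) or MII replicate 2 (0.46, 0.072), without moderation (0.071) and with hybridization controls (0.05) or poly-A controls (-0.42) made equal. It was called higher under equal array medians (1.08) and quantile normalization (0.82).

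At a further pair of Ago3 probe sets the difference was negative as deposited and not called, was positive and not called under equal array medians (0.40 and 0.17), and was called lower under equal poly-A controls (-1.10 and -1.33). At 1458476_at the values were 7.63, 7.18 and 7.62 in MII oocytes, against 7.23, 7.61 and 8.26 in GV oocytes, and the stages overlapped (-0.22, 95% interval -0.78 to 0.33). At 1441089_at they were 7.34, 6.68 and 7.36 in MII oocytes, against 7.45, 7.49 and 7.81 in GV oocytes. The stages did not overlap at 1441089_at, but its difference of -0.46 ± 0.20 was not called (adjusted p = 0.097). The other two were at 0.45 (1435904_at, adjusted p = 0.098) and 0.52 (1442009_at, adjusted p = 0.14), both overlapping between stages, and both called higher under equal array medians (1.07 and 1.14) and quantile normalization (1.09 and 0.88). Under equal poly-A controls they were at -0.43 and -0.36, neither called. The first of them was called higher without MII replicate 1 (0.60, adjusted p = 0.041) and the second without GV replicate 3 (0.84, adjusted p = 0.007). Within arrays 1441089_at changed by -0.90, -0.91 and -0.97 relative to 1435904_at, 1441063_at and 1442009_at, with no overlap between stages in any of these pairs.

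Ago4, the fourth mouse Argonaute, had 1 probe set, with 2.42, 2.84 and 2.74 in MII oocytes, against 2.50, 2.56 and 2.56 in GV oocytes. All 6 values lay below the median of their array, and the difference of 0.13 (95% interval -0.21 to 0.46) was not called. Equal array medians gave 0.75, called higher, and equal poly-A controls -0.74, called lower.

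Both members of the piRNA pathway were lower in MII oocytes, but only Mael under every scaling. Mael, a protein of germ cell granules needed for transposon silencing in the male germ line, had 5.04, 5.61 and 5.21 in MII oocytes, against 7.41, 7.39 and 7.46 in GV oocytes. The difference was -2.13 ± 0.16 (adjusted p = 2.6e-06), and over the 5 scalings it ranged from -3.01 to -1.51 and was called lower in each. All GV values were above the median of their array, and 1 of the 3 MII values was.

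Piwil2, the PIWI protein MILI, had 3.54, 3.40 and 3.20 in MII oocytes, against 3.97, 3.87 and 4.08 in GV oocytes. The stages did not overlap, with a difference of -0.59 ± 0.15 (adjusted p = 0.0075), but all 6 values were below the median of their array. With array medians made equal the difference was 0.03 and after quantile normalization -0.35 (adjusted p = 0.06), neither called. Within arrays Mael fell by 1.54 ± 0.22 more than Piwil2, without overlap between stages (exact permutation p = 0.1, adjusted 0.2).

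**Figure D3:**
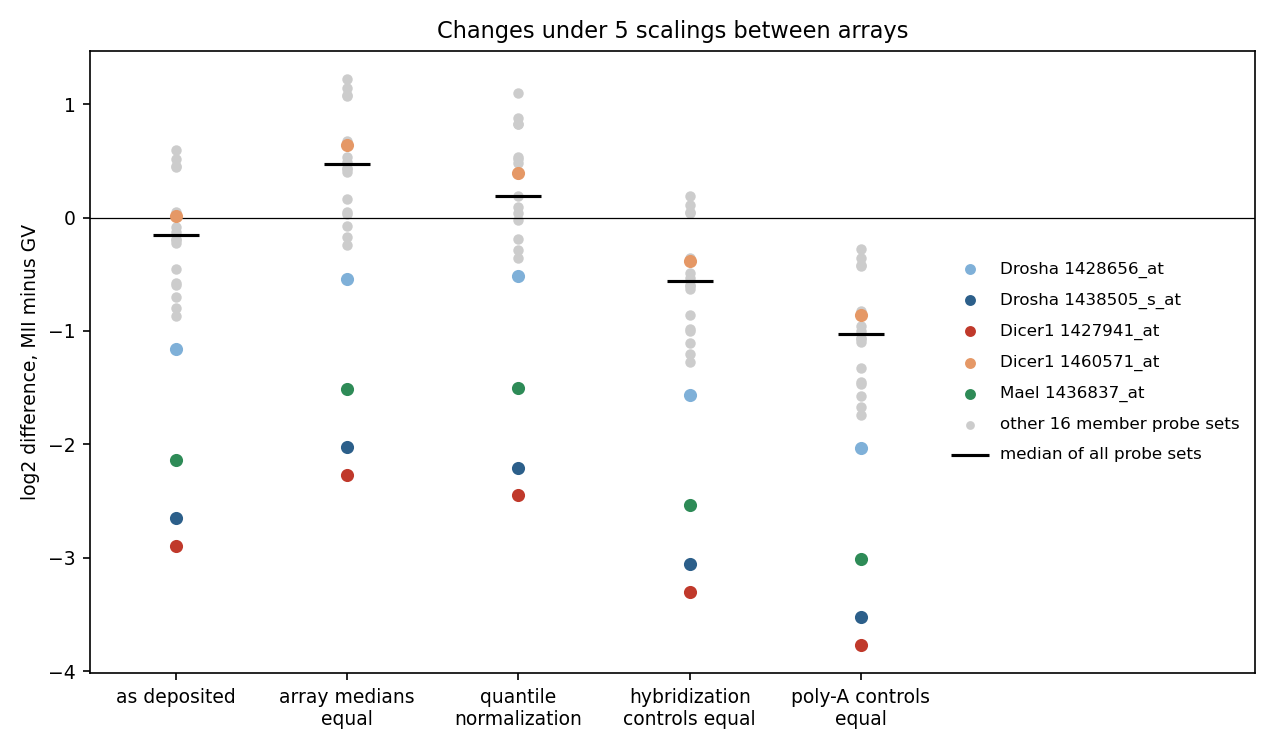
Log2 difference, MII minus GV (vertical axis), of the 21 probe sets under each of 5 scalings between arrays (horizontal axis), with the median of all probe sets as a black bar. Both Drosha probe sets, Dicer1 1427941_at and Mael lie below 0 and below the bar in every column, while 14 of the other 17 lie above 0 in at least 1 column and below 0 in another.

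The scalings moved the median of all probe sets from its deposited -0.15 by 0.62 with array medians made equal, by 0.34 after quantile normalization, by -0.40 with hybridization controls made equal and by -0.87 with poly-A controls made equal. Among all called probe sets 75.8% were lower as deposited, against 26.4%, 38.9%, 98.6% and 99.6% in the same order. The members moved with them: in that order 9, 7, 0 and 0 of the 21 were called higher, beside 55.5%, 34.8%, 0.480% and 0.300% of all probe sets. Called lower were 4, 4, 9 and 17, beside 19.9%, 22.1%, 33.2% and 84.9%. As deposited 8 of the 21 lay above the median of all probe sets. A constant shift of each array moves every difference and that median alike, so the other scalings keep this count by construction. Quantile normalization, which is no constant shift, gave 11. Reduced to the brightest probe set of each of the 9 genes, 5 were lower (Drosha, Dgcr8, Ago2, Piwil2, Mael) and 0 higher by limma, beside 37.8% lower and 10.5% higher over all genes. An unadjusted p under 0.05 was found for 6 of the 9, beside 54.6% of all genes. The mean over the probe sets of a gene instead gave falls for Drosha (-1.90), Dicer1 (-1.44), Mael (-2.13), Xpo5 (-0.64) and Piwil2 (-0.59), and no call for Dgcr8 (-0.31), Tarbp2 (-0.14), Ago2 (-0.13) or Ago3 (0.15).

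Other genes of the microRNA and siRNA pathways went both ways. Of 34 genes listed 32 were measured, and by the brightest probe set 4 were higher, 10 lower and 18 not called, beside 10.5% higher and 37.8% lower over all genes. These shares are near the background, and the median log2 difference was -0.19, beside -0.20 over all genes. The steepest fall was that of Srrt, which links the cap-binding complex to microRNA processing, with 5.35, 5.71 and 5.65 in MII oocytes, against 7.29, 7.60 and 7.25 in GV oocytes (-1.81 ± 0.16, adjusted p = 7.1e-06). The cap-binding protein gene Ncbp3 was at -1.69. Tsnax and Tsn, whose proteins form an RNase that removes passenger strands, were at -1.70 and -1.51, and all 4 probe sets of Tsn were lower. Tnrc6c, a GW182 protein that couples Argonautes to mRNA decay, was at -1.41, while its other probe set was not called (-0.57), though lower under equal hybridization controls (-0.97) and poly-A controls (-1.44). The terminal uridylyltransferase gene Tut7 was at -1.18 (its other probe set was not called, but was higher under equal array medians and lower under equal poly-A controls), and the exonuclease gene Eri1, which trims siRNAs and histone mRNAs, was at -0.87. The fall of Eri1 was not called under equal array medians (-0.25) but was under quantile normalization (-0.71). All its values lay below the median of their array.

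Rises in this list were called for Limd1, a scaffold between Argonautes and GW182 proteins, which had 8.48, 8.64 and 8.42 in MII oocytes, against 7.84, 6.94 and 7.18 in GV oocytes (1.19 ± 0.22, adjusted p = 0.0012), with a second probe set at 0.25 and not called (0.87 and higher under equal array medians, -0.63 and lower under equal poly-A controls). The exonuclease gene Xrn2 rose by 0.67, with other probe sets at 0.72 and 0.31, neither called. The poly(A) polymerase gene Tent2 and the helicase gene Ddx17, a cofactor of Drosha, rose by 0.49 each. None of the 4 rises was called with hybridization controls or poly-A controls made equal. Those settings left only 0.480% and 0.300% of all probe sets called higher. Of the 32 measured genes 7 were called lower in all 5 scalings, beside 22.2% of all genes, a share near the background. They were 7 of the 10 falls, beside 2532 of the 4315 falls over all genes: Srrt, Ncbp1, Ncbp3, Tsn, Tsnax, Tnrc6c and Tut7. All values of Ncbp1 and Tut7 at these probe sets lay below the median of their array. Prkra, the other Dicer1 partner, lay below the median of every array and was not called (-0.27, 95% interval -0.67 to 0.13). It was at 0.35 and not called under equal array medians, and at -1.14 and called lower under equal poly-A controls.

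Among the other piRNA genes 19 of the 21 listed were measured, with 12 lower and 0 higher by the brightest probe set, again beside 37.8% lower and 10.5% higher over all genes. An unadjusted p under 0.05 was found for 14 of the 19, beside 54.6% of all genes. Their median was -0.91. The steepest was Gtsf1, a zinc finger partner of PIWI proteins, which had 6.79, 7.07 and 6.65 in MII oocytes, against 11.99, 11.96 and 11.65 in GV oocytes. That is 32.7-fold lower (-5.03 ± 0.16, adjusted p = 2.1e-08), and its second probe set was lower too, at -3.19. Tdrd7 and Tdrd5, Tudor proteins of germ granules, were at -2.76 and -2.67, and Pnldc1, the exonuclease that trims piRNA ends, was at -1.97.

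Ddx4, the germ cell helicase VASA, was lower by a smaller amount (-1.01 ± 0.19, adjusted p = 0.0015) and was not called with array medians made equal (-0.39) or after quantile normalization (-0.36). The PIWI genes beside Piwil2 were not called: Piwil1 had 7.74, 7.44 and 7.40 in MII oocytes, against 7.63, 7.39 and 7.28 in GV oocytes (0.10, 95% interval -0.26 to 0.45), and Piwil4 lay between 2.06 and 2.16 in all 6 arrays. Equal array medians gave 0.72 and 0.64, both called higher, and equal poly-A controls -0.78 and -0.86, both called lower. Of the 19 measured genes of this list 8 were called lower in all 5 scalings, beside 22.2% of all genes. They were 8 of the 12 falls, beside 2532 of the 4315 falls over all genes: Gtsf1, Tdrd7, Tdrd5, Tdrkh, Pnldc1, Tdrd9, Exd1 and Asz1. The second probe set of Asz1 was not called as deposited (-0.16) and was called higher under equal array medians (0.46) and quantile normalization (0.43) and lower under equal poly-A controls (-1.03). Rnf17, a further Tudor protein gene, was not called at its brightest probe set (0.40), but its 3 other probe sets were lower (-0.83, -1.0 and -3.72), the last alone in all 5 scalings. Its brightest probe set was called higher under equal array medians (1.03) and quantile normalization (0.98). Also, 1 of the probe sets of Mybl1, a transcription factor gene of the pathway, was higher (0.83), a call not made under equal hybridization controls (0.42) or poly-A controls (-0.04). All values of that Mybl1 probe set lay below the median of their array. In the microRNA and siRNA list, Tnrc6a was not called as deposited at its brightest probe set (0.18). Tnrc6a was lower at others in all 5 scalings (-2.06 and -1.70 as deposited). Its remaining probe sets (0.36, 0.38, 0.13 and 0.09) were not called as deposited. Ddx6 was not called as deposited at its brightest probe set (0.05) or at another (0.30). Its remaining probe set was lower (-0.94), but not called under equal array medians (-0.32) or quantile normalization (-0.32). Rnf17, Mybl1, Tnrc6a and Ddx6 were singled out after their values were seen.

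**Figure D4:**
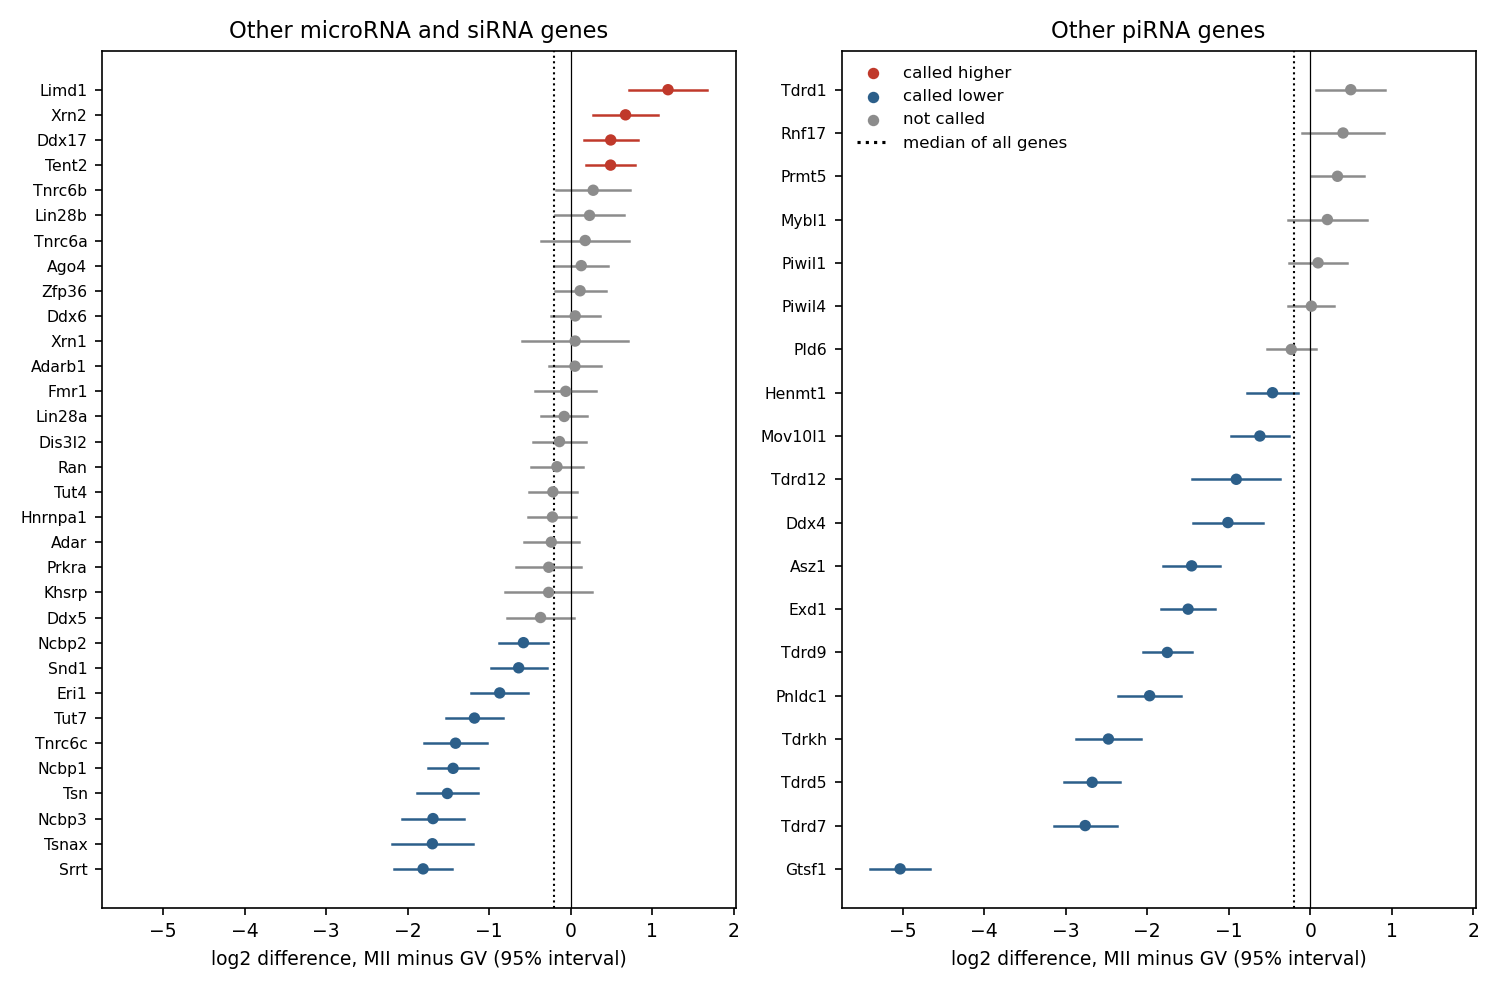
Log2 difference, MII minus GV, by the brightest probe set of each gene (points) with its 95% interval (bars), for the 32 other microRNA and siRNA genes at left and the 19 other piRNA genes at right. The dotted line is the median of all genes, -0.20. Gtsf1 stands lowest at -5.03 and Limd1 highest at 1.19.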

How the data were processed

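Per the submitters' processing notes, the authors made the deposited log2 expression values with RMA and the R package affy; versions, settings and the rule by which these probe sets were kept: not given in the sources used here. Every array holds the same set of distinct values. Per the labels, amplification was primed by a set of primers other than oligo(dT) or random hexamers. After 56 control features were set aside, all 21646 probe sets were fitted without a filter in limma 3.58.1 (R 4.3.3) with lmFit and eBayes on stage alone; 2-sided p-values were adjusted over all of them by Benjamini-Hochberg, with a threshold of 0.05. These p-values rest on the spread between 3 samples a stage, with the variance of each probe set moderated by eBayes using all probe sets. Gene names follow the array annotation (19078 probe sets with 1 symbol, 550 with several, 2018 with none); the brightest probe set of a gene has the highest mean over all samples. Pairs of probe sets were compared by exact permutation of within-array differences. The SE of a pair used the unmoderated variance of those differences in each stage, whereas the SE of a probe set used limma's moderated variance. Alternatives were 4 scalings, a filter on low values, 2 variance settings, probe set types, the replicate number as a block and leaving out each array.

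Members, lists, rules and alternatives were chosen with earlier results of these data known. Named were all members; in each role of the other lists up to 2 called rises and 2 called falls of largest size, or the 2 of highest mean; Ago4, Prkra, Piwil1, Piwil4 and Ddx4; and the 3 genes most like the largest member fall and rise. The labels number replicates 2 and 3 of each stage, and the first, which has no number, was taken as 1. Deviations of same-numbered samples from their stage means correlated at 0.091, 0.029 and 0.027 over probe sets, so the numbers were not taken to pair samples. Across numbers they ranged from -0.28 (MII 1 with GV 2) to 0.29 (MII 3 with GV 2). A pairing other than by number was not tested.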

Additional observations from a re-analysis of the deposited data

How the results depend on the processing

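The counts of calls rest on the scale between arrays. With array medians made equal, all probe sets gave 12016 rises and 4306 falls, the small RNA pathway probe sets 9 and 4, and 18 other microRNA and siRNA genes and 7 other piRNA genes were higher. Under that scaling positive differences replaced negative ones for Tarbp2 1423616_at (0.44), Tarbp2 1438952_x_at (0.54), Xpo5 1428560_at (0.049), Ago3 1441089_at (0.17), Ago3 1458476_at (0.40), Piwil2 1449170_at (0.030), Dgcr8 1455311_at (0.49) and Ago2 1455389_s_at (0.43). Quantile normalization gave 7538 and 4794 over all, 7 and 4 for the pathway probe sets, 11 and 6 rises in the other microRNA and piRNA lists, and turned Tarbp2 1423616_at (0.39), Tarbp2 1438952_x_at (0.51), Xpo5 1428560_at (0.10), Ago3 1441089_at (0.19), Ago3 1458476_at (0.38), Dgcr8 1455311_at (0.53) and Ago2 1455389_s_at (0.041). Equal hybridization controls left 104 rises over all and 0 in the pathway probe sets and the other microRNA genes, and turned Dgcr8 1422981_at (-0.35) and Dicer1 1460571_at (-0.39). Equal poly-A controls gave 65 rises and 18380 falls over all, 0 and 17 for the pathway probe sets, 0 and 28 for the other microRNA genes, and turned Dgcr8 1422981_at (-0.82), Dicer1 1460571_at (-0.85), Ago2 1435636_at (-0.27), Ago3 1435904_at (-0.43), Ago3 1441063_at (-0.42) and Ago3 1442009_at (-0.36). The cause was not tested. Testing only probe sets with a mean above the median, 10823 in number, left 4438 falls over all, 0 rises of pathway probe sets and 1 rise of a piRNA gene. Without moderation of the variance 1279 rises were called over all, 0 in the pathway probe sets and 2 in the other microRNA genes. A single value per gene as the mean over its probe sets called 2 piRNA genes higher. No share over all genes was computed for the counts of listed genes in this section. These counts therefore cannot be set against the background. With the replicate number as a block, 1 piRNA gene was higher, 20 of the 21 pathway probe sets kept their call and Ago3 1435904_at was called higher (0.45, adjusted p = 0.032). Leaving out each array gave 1547 to 2127 rises over all, fewest without GV replicate 2, and 0 to 3 rises in the pathway probe sets, 2 to 4 in the other microRNA genes and 0 to 1 in the piRNA genes. It moved Dgcr8 1422981_at between -0.16 and 0.35, Dgcr8 1455311_at between -0.32 and 0.024, Tarbp2 1423616_at between -0.31 and 0.015, Tarbp2 1438952_x_at between -0.25 and 0.024, Ago3 1458476_at between -0.46 and 0.058 and Dicer1 1460571_at between -0.037 and 0.071. All 8 falls of pathway probe sets were called without any 1 array. A variance trend with intensity kept all 21 calls. All 3 Ago2 probe sets, Piwil2, 2 of Ago3 and 1 of Dgcr8 lay below the median of every array.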
